A study of Mus musculus with 6 samples.

Results

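The miR-148 and miR-152 family comprises the mature products of 3 mouse genes, Mir148a, Mir148b and Mir152, each with a 5p and a 3p arm. Its members were taken by name from the scanner output of a miRNA microarray, and they made up 6 of the 1247 mouse miRNAs on the array. The 3 3p arms were detected on all 6 arrays and the 3 5p arms on 0 arrays, so that 3 of the 166 miRNAs that could be tested belonged to the family. The study compared livers of male C57BL/6 mice injected with carbon tetrachloride (CCl4) with livers of mice given its vehicle, corn oil. CCl4 is a hepatotoxic chemical, and repeated dosing is a common way to bring about liver fibrosis in mice. CCl4 was given intraperitoneally at 0.6 mL/kg in corn oil 2 times a week for 10 weeks, starting at 7 weeks of age, and the livers were taken 48 h after the last injection. Each group had 3 livers, and total RNA of each was labeled with Cy3 and hybridized to its own array, from 100 ng. The labels do not say whether cages or litters were shared, so the spread between arrays holds whatever differed between these livers and their processing. Whole liver was measured, in which fewer cells of a type and less RNA per cell cannot be told apart.

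A miRNA pairs with mRNAs mainly through its seed, the bases from 2 to 8 counted from the 5′ end, and miRNAs with the same seed are expected to share many targets. miR-148a is abundant in the adult liver and in hepatocytes. A known target of the family is the mRNA of Dnmt1, the enzyme that maintains DNA methylation.

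The sequences of the 3p arms are shown because they are the arms that gave signal, and because they differ at so few bases. They were taken from RefSeq, build GRCm38.p6, which matched 6 of the 6 members by the names on the array, such as mmu-miR-148a-3p. The seed is in capitals.
miR-148a-3p: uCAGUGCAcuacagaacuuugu
miR-148b-3p: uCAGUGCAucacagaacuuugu
miR-152-3p: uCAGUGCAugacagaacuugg
The seed CAGUGCA was shared by these 3 miRNAs and by 0 others in the RefSeq table. Counted from 1 at the 5′ end, miR-148b-3p differed from miR-148a-3p by C9U and U10C over 22 bases. Over the 21 bases that it shared with miR-148a-3p, miR-152-3p differed by C9U, U10G and U20G. miR-152-3p differed from miR-148b-3p by C10G and U20G over the same length. The probe sequences were not used here, and how far a probe for 1 member also captures another was not tested.

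The 5p arms are shown because each comes from the same hairpin as a detected 3p arm.
miR-148a-5p: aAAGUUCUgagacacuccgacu
miR-148b-5p: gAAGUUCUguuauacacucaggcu
miR-152-5p: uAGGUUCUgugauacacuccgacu
miR-148a-5p and miR-148b-5p had the seed AAGUUCU in common, and miR-152-5p shared its seed with 0 other miRNAs of the table. The 3 genes lay on different chromosomes, with Mir148a on chromosome 6, Mir148b on chromosome 15 and Mir152 on chromosome 11. Mir148b lay within the span of Copz1 and Mir152 within that of Copz2, which encode alternative zeta subunits of the COPI vesicle coat. Mir148a lay within the span of Gm38821. None of the 3 had another miRNA gene within 50 kb, as each had 0.

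The array of CCl4 replicate 3 stood apart from the others, and the members' changes and shifts are therefore given with and without it. It detected 334 miRNAs, against 227 and 245 on the other CCl4 arrays and 186 to 193 on the corn oil arrays. Its summed signal was 316413, against 167865 to 177351 on the other 5 arrays. Its rank correlation with the other CCl4 arrays was 0.860 and 0.856 over the 166 tested miRNAs, whereas these correlated with each other at 0.979. The 6 arrays shared 1 slide, on which row 1 held the CCl4 livers and row 2 the corn oil livers, so that slide row and treatment cannot be told apart. The median log2 change over the tested miRNAs, CCl4 minus corn oil, was 0.99 without normalization and -0.14 after quantile normalization, and unnormalized changes are therefore also given relative to that median.

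miR-148a-3p had similar signals on 5 arrays and a lower one on the array of CCl4 replicate 3. Its total signal, the intensity summed over its probes and not normalized between arrays, was 447, 378 and 418 on the corn oil arrays (mean 415 ± 34.6, SD, n = 3). On the CCl4 arrays it was 402, 426 and 292 (mean 374 ± 71.4, SD, n = 3). CCl4 replicates 1 and 2 lay within the corn oil range, and only replicate 3 lay below it. Without normalization the change was -0.17 on the log2 scale, which was 1.16 below the median miRNA, and the groups overlapped (exact permutation test, two-sided, p = 0.6). Without CCl4 replicate 3 the change was 0.00.

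Quantile normalization, which gives every array the same distribution of signals, placed miR-148a-3p lower in all CCl4 livers. Its log2 signal was 9.23, 9.14 and 9.14 in the corn oil livers and 8.37, 8.83 and 6.53 in the CCl4 livers. The groups did not overlap, as was the case in the lower direction for 24.7% of the tested miRNAs, and the lowest value was that of CCl4 replicate 3. The log2 change was -1.26 (SE 0.62, 95% interval -2.81 to 0.29), and limma gave it an adjusted p of 0.228 over the 166 miRNAs. A call required more than a 2-fold change together with an adjusted p below 0.05, which 12.0% of the tested miRNAs met and miR-148a-3p did not. Without CCl4 replicate 3 the change was -0.57 (SE 0.16) with an adjusted p of 0.046 in limma. That was less than 2-fold and so not a call, of which there were 16.9% on these 5 arrays, and 33.7% of the miRNAs were lower with an adjusted p below 0.05.

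miR-152-3p had a higher unnormalized signal on every CCl4 array than on any corn oil array. Its total signal was 37.8, 30.2 and 33.6 on the corn oil arrays (mean 33.9 ± 3.81, SD, n = 3). On the CCl4 arrays it was 62.3, 48.5 and 343 (mean 151 ± 166, SD, n = 3). The groups did not overlap, and CCl4 replicate 3 was far above the other CCl4 arrays. A non-overlap in the higher direction was found for 63.3% of the tested miRNAs without normalization. The log2 change was 1.59, which was 0.59 above the median miRNA, and the exact permutation test gave p = 0.1, the smallest that 3 against 3 arrays allow. Without CCl4 replicate 3 it was 0.70 (adjusted p = 0.018 in limma), or 0.25 above the median, and under 2-fold. That p is for the change from 0, where the median of all miRNAs was 0.45, and the excess over the median was not tested.

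After quantile normalization the miR-152-3p groups overlapped. The log2 signal was 5.92, 5.77 and 5.77 in the corn oil livers and 5.57, 5.59 and 6.84 in the CCl4 livers. CCl4 replicates 1 and 2 were below the corn oil range and replicate 3 above it. The log2 change was 0.18 (SE 0.38, 95% interval -0.77 to 1.13), with an adjusted p of 0.768 in limma. Without CCl4 replicate 3 the change turned to -0.22 (SE 0.07, adjusted p = 0.057 in limma), with the groups apart in the lower direction, as for 41.6% of the miRNAs, so its direction under quantile normalization rested on that liver.

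The unnormalized signal of miR-148b-3p was also higher on every CCl4 array than on any corn oil array. Its total signal was 7.70, 7.19 and 7.39 on the corn oil arrays (mean 7.43 ± 0.256, SD, n = 3). On the CCl4 arrays it was 10.4, 9.87 and 38.1 (mean 19.5 ± 16.1, SD, n = 3). The groups did not overlap (exact permutation test, two-sided, p = 0.1), as in the higher direction for 63.3% of the tested miRNAs without normalization. CCl4 replicate 3 again lay far above the rest. The log2 change of 1.09 was 0.09 above the median miRNA. Without CCl4 replicate 3 the change was 0.45 (adjusted p = 0.013 in limma), which was the median of all miRNAs on those arrays. That p is for the change from 0, and so shows no change apart from that of the median miRNA.

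The quantile-normalized log2 signal of miR-148b-3p was 3.59, 3.52 and 3.24 in the corn oil livers and 2.92, 3.24 and 3.94 in the CCl4 livers. The groups overlapped, with CCl4 replicate 3 the highest and replicate 1 the lowest of the 6. The log2 change was -0.08 (SE 0.30, 95% interval -0.83 to 0.66), with an adjusted p of 0.895 in limma. It was -0.33 without CCl4 replicate 3 (adjusted p = 0.141 in limma). Of the 3 detected members 0 were thus called, where 12.0% of all tested miRNAs were.

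**Figure D1:**
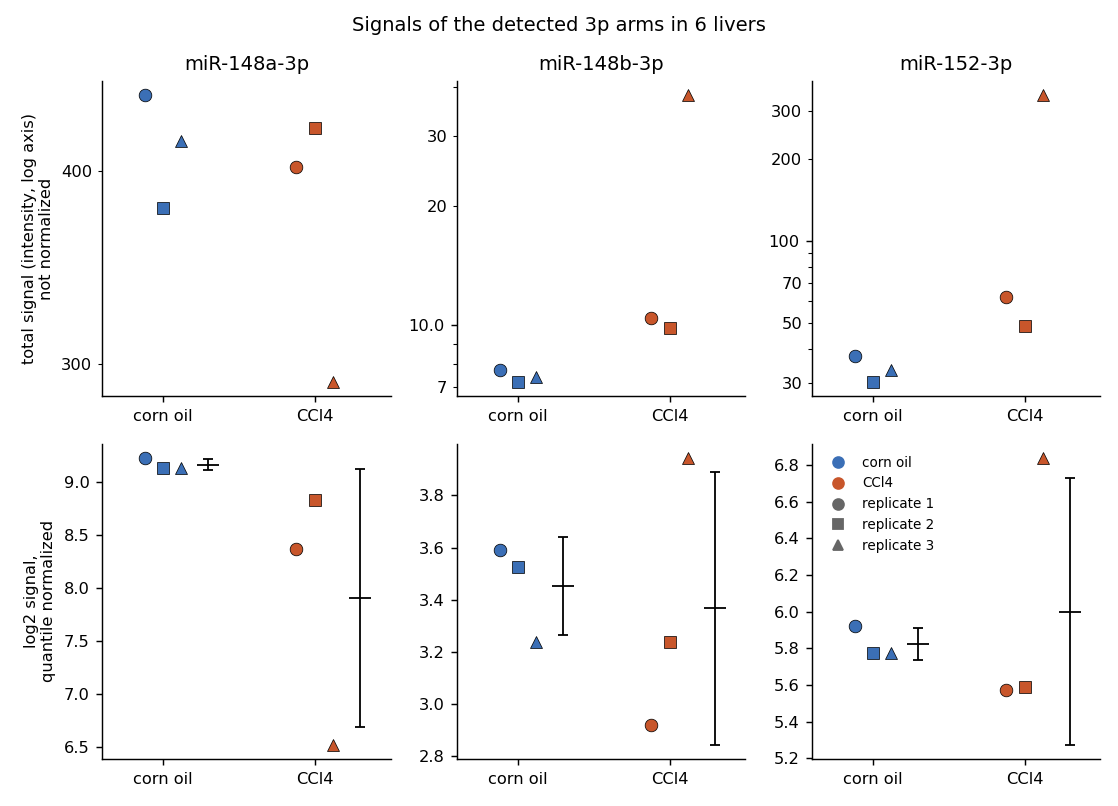
Each point is 1 liver, with corn oil in blue and CCl4 in orange and the replicate number as the symbol. The upper row plots the unnormalized total signal on a log axis and the lower row the quantile-normalized log2 signal, with the mean and SD of each group (n = 3) as a bar. miR-148b-3p and miR-152-3p lie higher on all CCl4 arrays in the upper row, and the groups overlap in the lower row, whereas miR-148a-3p separates only after normalization.

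The probes of a member gave like differences. miR-148a-3p had 2 probes of 20 spots each, whose unnormalized log2 changes were -0.17 and -0.16. The changes of the 2 probes of miR-152-3p were 1.60 and 1.58, and on them the array of CCl4 replicate 3 lay 2.63 and 2.65 above the mean of the other CCl4 arrays. On miR-148a-3p's probes this array lay 0.50 below in total signal, and further below in median spot signal. The median spot signals of the 2 probes were 270 and 486 there, against 507 and 915 on CCl4 replicate 1 and 537 and 972 on CCl4 replicate 2. miR-148b-3p was measured by 1 of its probes, with 16 to 19 of 20 spots well above background in the corn oil livers and 20 of 20 in the CCl4 livers. Its other probe had 0 of 20 spots well above background on every array, with a median spot signal of -0.063 to 1.90 in the corn oil livers and 3.57, 3.51 and 13.2 in the CCl4 livers. The coefficient of variation over replicate spots was 2.46% to 5.69% for miR-148a-3p, 4.34% to 18.5% for miR-152-3p and 5.57% to 16.6% for miR-148b-3p. The ratio of total to median spot signal, as the median over the probes of miR-148a-3p and miR-152-3p, was 0.388 on CCl4 replicate 3 and 0.282 to 0.287 on the other arrays. Taking mean spot signals instead, without normalization, the changes were -0.31 for miR-148a-3p, 0.97 for miR-148b-3p and 1.44 for miR-152-3p.

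The 5p arms could only be bounded. The software lists a total signal of 0.1 where a miRNA is not detected, and it did so for all 3 arms on all 6 arrays. Of 40 spots per array for each arm, at most 1 was well above background. Median spot signals ran from -4.21 to 5.32 for miR-148a-5p, from -1.66 to 2.68 for miR-148b-5p and from -2.84 to 1.13 for miR-152-5p. The lowest total signal that counted as detected was 1.90 to 2.04 for corn oil and 2.00 to 2.84 for CCl4. Total signals are on another scale than spot signals, and the highest total signal of a single probe of these arms was 0.72. No change between the groups can be stated for these arms, since both groups were below detection.

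Differences between miRNAs on the same array do not move with a scaling factor, and they were compared for 9 pairs, 3 within the family and 6 against miR-122-5p and miR-192-5p, both abundant in hepatocytes. miR-152-3p was shifted upward relative to miR-148a-3p in every CCl4 liver. Relative to the corn oil mean, the log2 difference between them was shifted by 0.92, 0.48 and 3.85 in CCl4 replicates 1, 2 and 3, with an SD of 0.05 in the corn oil livers (n = 3). The mean shift was 1.75, and 0.70 without CCl4 replicate 3, which is 1.63-fold. The exact permutation test gave p = 0.1, and 0.1 after adjustment over the 9 pairs, the smallest value that the design allows.

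Relative to miR-148a-3p, miR-148b-3p was shifted by 0.53, 0.37 and 2.86 in the CCl4 livers, with a mean of 1.25 and 0.45 without replicate 3. The shift of miR-152-3p relative to miR-148b-3p was smaller, at 0.39, 0.11 and 0.99, and in CCl4 replicate 2 it barely exceeded the highest corn oil value. Its mean was 0.50 (exact permutation test, p = 0.1) and 0.25 without replicate 3. Among all pairs of the 166 miRNAs, 49.0% did not overlap between the groups, and 59.4% of the other miRNAs were shifted upward relative to miR-148a-3p without overlap. These shares were 74.7% and 60.0% without CCl4 replicate 3. The shift of its family members relative to miR-148a-3p was thus shared by most of the miRNAs tested. miR-152-3p stood higher in that order, as 45.5% of the other miRNAs were shifted downward relative to it without overlap and 9.70% upward, or 50.3% and 23.0% without CCl4 replicate 3. For miR-148b-3p these shares were 30.3% and 17.6%, or 41.2% and 38.2% without CCl4 replicate 3.

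**Figure D2:**
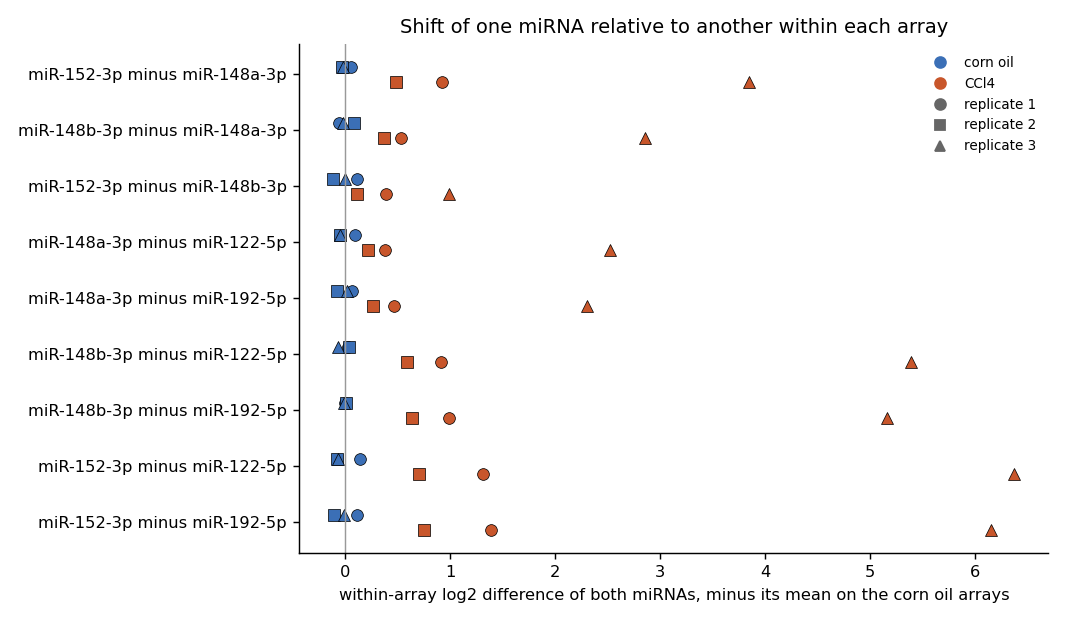
The x axis is the log2 difference between the 2 miRNAs of a pair on an array, minus its mean over the corn oil arrays. Points are livers, with corn oil in blue and CCl4 in orange. All CCl4 points lie to the right of the corn oil points in the 9 pairs, farthest for CCl4 replicate 3. The closest approach is that of miR-152-3p minus miR-148b-3p. In 6 of the pairs the reference is miR-122-5p or miR-192-5p, whose unnormalized signals were lower on every CCl4 array. The median of all miRNAs was higher there, by 0.55, 0.35 and 2.05 on CCl4 replicates 1, 2 and 3. A miRNA at that median would also lie to the right in such pairs, and the share of all miRNAs that do was not counted.

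Without normalization, miR-148a-3p was shifted upward relative to miR-122-5p and miR-192-5p in every CCl4 liver. The total signal of miR-122-5p, the liver-enriched miRNA most abundant in hepatocytes, was 17855, 16613 and 18345 in the corn oil livers, against 13109.9, 15544 and 2158 in the CCl4 livers. That of miR-192-5p was 1473, 1370 and 1422, against 1004, 1216 and 203. Relative to miR-122-5p, miR-148a-3p was shifted by 0.38, 0.22 and 2.53 in the CCl4 livers (mean 1.04, exact permutation test, p = 0.1), and by 0.30 without CCl4 replicate 3. Relative to miR-192-5p its shift was 0.46, 0.27 and 2.30, with a mean of 1.01 and 0.36 without CCl4 replicate 3. Only 2.42% of the other miRNAs, or 4 of 165, were shifted downward relative to miR-148a-3p without overlap, namely miR-122-5p, miR-192-5p, miR-194-5p and miR-101b-3p, the last being the smallest shift at -0.35. These 4 belong to the list of hepatocyte miRNAs, whose remaining tested member, miR-101a-3p, was 64.3 to 74.6 in the corn oil livers and 69.0, 67.3 and 296.9 in the CCl4 livers. The share was 9.70%, or 16 of 165, without CCl4 replicate 3. Most of those 16 were not on the hepatocyte list, of which only 5 members were tested. After quantile normalization 10 of the 166 miRNAs had a lower change than miR-148a-3p, and 4 of these were on the hepatocyte list. The shifts of miR-148a-3p then became 0.23 against miR-122-5p and 0.72 against miR-192-5p. Without CCl4 replicate 3 they turned to -0.57 and -0.10, so that their direction depended on the normalization and on that liver. Without that liver, quantile normalization gave miR-122-5p the value 13.98 on every array, although its unnormalized signal was lower in both remaining CCl4 livers. A shift against miR-122-5p is there only the member's own change. miR-152-3p and miR-148b-3p were shifted further against miR-122-5p, by 2.80 and 2.30, and by 1.01 and 0.75 without CCl4 replicate 3. Where the signals of those 5 arrays were quantile normalized, these shifts were -0.22 and -0.33. Unnormalized, the median miRNA changed by 0.99 and miR-122-5p by -1.21, or by 0.45 and -0.30 without CCl4 replicate 3. Against miR-122-5p, miR-148b-3p thus moved about as far as the median miRNA, and miR-152-3p 0.59 further, or 0.25 without that liver. miR-148a-3p moved less than the median miRNA. The share of all miRNAs shifted upward against miR-122-5p or miR-192-5p was not counted.

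Lists of miRNAs typical of cell types also differed between these arrays, and their part in the members' values was not tested. Of all tested miRNAs 12.0% were called, a share under which 0 calls in lists this short say little. In the hepatocyte list 5 of 7 were tested, 0 were called, and the median log2 change was -1.82 (-0.71 without CCl4 replicate 3), against -0.14 over all tested miRNAs. The summed total signal of the list was 18761 to 20641 for corn oil and 14737, 17491 and 2818 for CCl4. In the list of mesenchymal miRNAs 4 of 6 were tested and 2 were called higher, as were 7.23% of all tested miRNAs, with a median of 1.31 (1.35 without CCl4 replicate 3), and its summed signal was 67.2 to 109 for corn oil and 643, 255 and 1236 for CCl4. The immune list, with 3 of 6 tested and 0 called, had a median of 0.52 (0.97 without CCl4 replicate 3) and a summed signal of 77.7 to 91.0 against 475, 346 and 457. The 2 red cell miRNAs on the array were tested and 0 were called, with a median of -0.55 (-0.72 without CCl4 replicate 3) and a summed signal of 466 to 754 against 730, 315 and 2135. miR-122-5p was detected on all arrays, whereas miR-122-3p and miR-192-3p were not detected on CCl4 replicate 3, and miR-145a-5p, miR-150-5p and miR-155-5p were not detected on any corn oil array. Of the CCl4 arrays, miR-150-5p was detected on all 3, miR-145a-5p on replicates 1 and 3 and miR-155-5p on replicate 1 alone. More miRNAs of any kind were detected on the CCl4 arrays, 227 to 334 against 186 to 193.

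**Figure D3:**
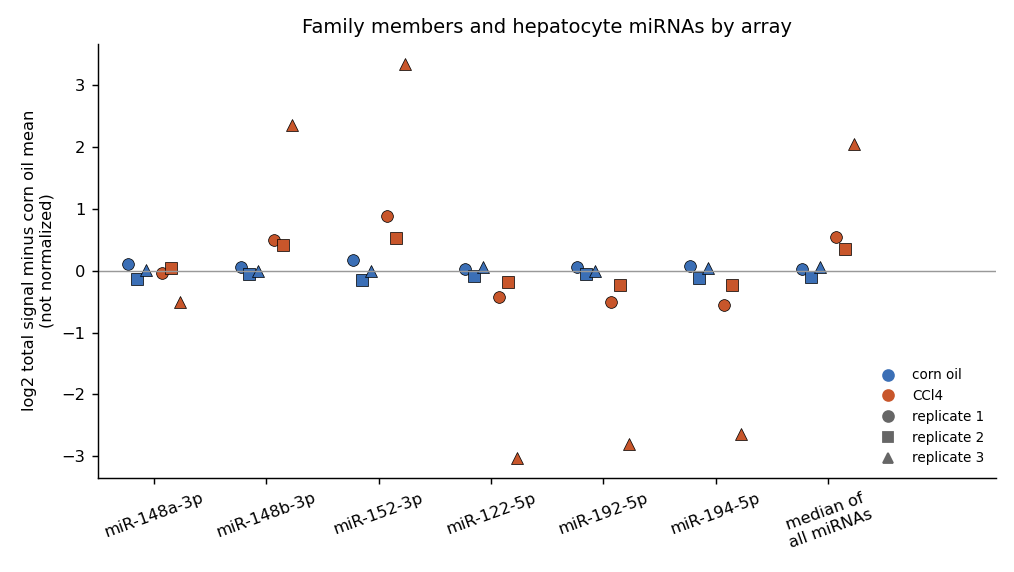
The log2 total signal of each miRNA minus its corn oil mean is plotted for every liver, with corn oil in blue and CCl4 in orange, beside the median of all 166 miRNAs (0.55, 0.35 and 2.05 on CCl4 replicates 1, 2 and 3). miR-152-3p and miR-148b-3p lie above 0 in each CCl4 liver, miR-148a-3p lies near 0 in replicates 1 and 2 and at -0.50 in replicate 3, and miR-122-5p lies at -3.03 there.

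Over the 6 arrays the quantile-normalized signal of miR-148a-3p, chosen as the member with the highest total signal, was most like that of miR-92a-3p and miR-194-5p (Pearson r 0.997 each), miR-19b-3p (0.995), miR-5105 (0.989) and miR-31-5p (0.988). After this normalization they share the 1 low point of CCl4 replicate 3, and over the other 5 arrays the values were 0.970, 0.983, 0.985, 0.987 and 0.868 in the same order. Without normalization, miR-92a-3p and miR-19b-3p were highest on CCl4 replicate 3, at 226 and 497, where miR-148a-3p was lowest, at 292. There miR-194-5p and miR-31-5p were also lowest, at 96.2 and 37.7, and miR-5105, at 92.5, lay above its corn oil range. miR-152-3p was most like miR-7a-5p (0.992 over 6 arrays, 0.974 over 5) and miR-98-5p (0.988 and 0.902). All are descriptions over few arrays, and miR-152-3p's list was chosen after its values were seen.

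The direction of the small changes depended on the processing. The change of miR-148a-3p was between -1.80 and 0.00 over the alternatives, and 22 of 23 kept its direction. That of miR-152-3p was above 0 under 20 of 22 and that of miR-148b-3p below 0 under 13 of 21.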

How the data were processed

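Spot and miRNA signals of 6 arrays were extracted by the authors with Agilent Feature Extraction 11.0.1.1 and deposited as linear intensities, from which the background had been subtracted but which had not been normalized across arrays. The authors also deposited a table of quantile-normalized intensities of 111 miRNAs, which holds miR-148a-3p of the family and was used only as an alternative.

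Control spots were left out. miRNAs flagged as detected on all 6 arrays were retained. Their log2 total signals were quantile normalized and compared by treatment alone in limma 3.58.1 (R 4.3.3), with Benjamini-Hochberg adjustment over the 166 miRNAs. A call required more than a 2-fold change together with an adjusted p below 0.05. The fit was also run on simulated data with independent noise and no outlying array. That run cannot show how the fit handles an array such as CCl4 replicate 3. Differences between miRNAs within an array were compared by exact two-sided permutation tests, adjusted over the 9 pairs. The rest was done in Python 3.11.15 with scipy 1.17.1, pandas 2.3.3, numpy 2.4.6 and, for plots, matplotlib 3.10.9. Precision is limited by the number of arrays.

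Besides all family members, the text names miR-122-5p, miR-192-5p and miR-194-5p, the 5 miRNAs most correlated with the member of the highest total signal, miRNAs with a shared seed and neighbouring miRNA genes. Any other miRNA was chosen with its values in view. Members, lists and tests were chosen with earlier results of these data known. Of the 1247 names, 1017 matched a mature sequence in RefSeq. Alternatives changed the normalization, signal, filter, model and arrays used. The normexp correction used median in place of mean spot signals, which the files hold.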

Additional observations from a re-analysis of the deposited data

How the results depend on the processing

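None of the 3p arms was called under any alternative run. The main count of called miRNAs, 20 of 166, was 4 with normexp correction at an offset of 50, 7 where over 50% of spots had to be well above background, 12 with the deposited values, 34 with detection on all arrays of 1 group, and 5 to 28 when leaving out 1 array at a time. Without a detection filter it was 1028, of which 1017 were lower, because undetected signals were set to the lowest detected signal of each array after quantile normalization. That floor was 1.74 on average for corn oil and -1.42 for CCl4 on the log2 scale, and the 5p arms come out lower by that construction. Of 5 settings chosen after seeing the data, array weights gave 31 calls and no normalization without CCl4 replicate 3 gave 41. With the replicate number as a block the count was 6, the changes were -1.26, -0.08 and 0.18 for miR-148a-3p, miR-148b-3p and miR-152-3p, and the adjusted p-values were 0.242, 0.904 and 0.766 in limma. Whether the numbers pair the samples could not be decided. Same-numbered arrays deviated together with r of -0.18, 0.11 and 0.03, and arrays with different numbers with r of -0.27 to 0.24. Each group held only 3 arrays, with CCl4 replicate 3 apart from the rest, so these values can neither show nor exclude pairing. The corn oil numbering was itself uncertain, as columns 1, 2 and 3 of the deposited table ranked most like arrays 2, 3 and 1. The change of miR-148a-3p was 0.0015 with no normalization and without CCl4 replicate 3, and -1.80 to -0.57 when leaving out 1 array. That of miR-148b-3p turned upward with no normalization (1.09), the 75th percentile of all miRNAs (0.58), cyclic loess (0.15), mean spot signals (0.16, or 0.97 unnormalized), normexp (0.049), and no normalization without CCl4 replicate 3 (0.45), and ran from -0.33 to 0.14 when leaving out 1 array. That of miR-152-3p turned downward with array weights (-0.23), and ran from -0.22 without CCl4 replicate 3 to 0.39. The cause of these turns was not tested. With over 50% of spots required, miR-148b-3p was detected on 0 arrays in place of 6, since 1 of its 2 probes had no spot well above background, and it had no value there. The 9 within-array differences kept their direction under quantile normalization with all arrays, and without any 1 array where not normalized, with ranges for leaving out 1 array of 0.70 to 2.39 (miR-152-3p minus miR-148a-3p), 0.45 to 1.70 (miR-148b-3p minus miR-148a-3p) and 0.25 to 0.69 (miR-152-3p minus miR-148b-3p). The fifth of those settings, quantile normalization without CCl4 replicate 3, turned 4 of them downward, namely miR-148a-3p against miR-122-5p (-0.57) and miR-192-5p (-0.096), and miR-148b-3p (-0.33) and miR-152-3p (-0.22) against miR-122-5p. Under that setting miR-122-5p had the same value on every array, so the turns against it are the members' own changes.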

Other observations

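The miR-29 family, which also targets mRNAs of DNA methyltransferases, was set beside the miR-148 and miR-152 family. The total signal of miR-29a-3p was 1209.9, 1109.7 and 1269 in the corn oil livers, against 1417, 1257 and 6777 in the CCl4 livers. miR-29b-3p gave 319, 301.2 and 321 against 452, 408 and 3076, and miR-29c-3p gave 579, 506 and 561 against 411, 446 and 2593. CCl4 replicate 3 had the highest unnormalized signal for all 3. The quantile-normalized log2 changes were 0.15, 0.47 and -0.40, with adjusted p-values of 0.570, 0.520 and 0.458 in limma, so that 0 of 3 were called, against 12.0% of all tested miRNAs. Without CCl4 replicate 3 the changes were 0.00, -0.05 and -0.78, so that the direction for miR-29b-3p turned and the change of miR-29c-3p was larger. The 0.00 of miR-29a-3p came from equal ranks under quantile normalization, not from equal signals.

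miR-130a-3p, miR-130b-3p, miR-301a-3p and miR-721 have a seed that overlaps that of the family by 6 bases at an offset of 1. Of the 5 miRNAs in this list, which also holds miR-301b-3p, 1 was detected on all arrays. That was miR-130a-3p, with a total signal of 330.3, 273 and 328 for corn oil and 422, 386 and 797 for CCl4, and a log2 change of -0.33 (adjusted p = 0.325 in limma), or -0.16 without CCl4 replicate 3. miR-301a-3p was not detected on the corn oil arrays and had signals of 8.50, 5.72 and 80.5 on the CCl4 arrays. miR-721 was detected on the corn oil arrays only, at 136, 6.49 and 6.26.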
